A study of Mus musculus with 12 samples.

Results

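The antioxidant enzymes of mouse liver were followed through 3 days without food, with cytosolic superoxide dismutase (Sod1) and glutaredoxin (Glrx) at the centre. Members were chosen by gene name on the array: the Sod1 probe and every probe named for a superoxide dismutase, glutaredoxin, glutathione peroxidase, peroxiredoxin, thioredoxin, thioredoxin reductase, glutathione reductase, glutamate-cysteine ligase subunit, haem oxygenase or Nqo1. The rule gave 19 probes for 18 genes, out of 20280 probes and 6564 gene symbols. The members were Sod1, Sod2, Gpx1, Gpx3, Gpx4, Prdx2, Prdx3, Prdx4, Glrx, Gsr, Gclc, Gclm (by a brighter and a dimmer probe), Txn1, Txn2, Txnrd1, Hmox1, Hmox2 and Nqo1. No measured value entered the choice by name. Both Sod1 and Glrx are, however, among the genes that the study names from these arrays, so their values are given as a description and not as independent evidence.

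Male FVB mice, 6 weeks old, were fed freely or had their chow removed for 12, 24 or 72 hours before the liver was taken. Each of the 4 groups was measured on 3 two-colour oligonucleotide arrays. For each array, RNA of 2 livers was combined and given the dye Cy3 (the sample channel), while the dye Cy5 marked a common reference made from 6 fed livers. The label numbers place the livers of the fed samples in the reference pool as well. The dyes were not exchanged, and levels are given as log2 of sample over reference, on which scale a difference of 1 is a doubling. A pool hides the spread between its mice, and in whole liver fewer cells of a type and less RNA per cell cannot be told apart.

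Superoxide dismutases turn superoxide into hydrogen peroxide, Sod1 in the cytosol and Sod2 in mitochondria. The peroxide is then reduced by glutathione peroxidases at the cost of glutathione, or by peroxiredoxins at the cost of thioredoxin. Oxidised glutathione is restored by glutathione reductase (Gsr) and oxidised thioredoxin by thioredoxin reductase (Txnrd1), both with NADPH as the electron donor. Glutaredoxin removes glutathione from protein thiols, and Gclc and Gclm are the subunits of the enzyme that limits glutathione synthesis. Liver is rich in all of these systems, since its mitochondria, peroxisomes and cytochromes P450 release oxidants continuously. Many of the genes carry antioxidant response elements, through which the transcription factor Nfe2l2 acts.

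The promoters of Sod1, Glrx, Gpx1 and Txnrd1 are shown because these genes carry the comparisons that follow. Each window holds 250 bases before the annotated start and 50 from it, in the direction of the gene, from RefSeq on GRCm38.p6. The windows are chr16:90220512-90220811 for Sod1, chr13:75839635-75839934 for Glrx, chr9:108338830-108339129 for Gpx1 and chr10:82858956-82859255 for the second of the 3 annotated Txnrd1 starts, all on the plus strand. Capitals mark the core of the antioxidant response element, TGACNNNGC, on either strand.
Sod1: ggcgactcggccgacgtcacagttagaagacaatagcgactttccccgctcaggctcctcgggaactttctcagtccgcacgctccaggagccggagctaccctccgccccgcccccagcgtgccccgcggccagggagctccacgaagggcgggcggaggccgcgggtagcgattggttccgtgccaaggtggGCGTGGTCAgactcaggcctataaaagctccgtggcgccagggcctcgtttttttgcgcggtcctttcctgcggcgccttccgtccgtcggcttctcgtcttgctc
Glrx: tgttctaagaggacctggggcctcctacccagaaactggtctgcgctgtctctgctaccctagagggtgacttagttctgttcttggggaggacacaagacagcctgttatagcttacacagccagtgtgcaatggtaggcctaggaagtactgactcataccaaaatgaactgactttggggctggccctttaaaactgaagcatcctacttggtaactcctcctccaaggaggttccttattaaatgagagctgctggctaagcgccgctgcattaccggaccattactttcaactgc
Gpx1: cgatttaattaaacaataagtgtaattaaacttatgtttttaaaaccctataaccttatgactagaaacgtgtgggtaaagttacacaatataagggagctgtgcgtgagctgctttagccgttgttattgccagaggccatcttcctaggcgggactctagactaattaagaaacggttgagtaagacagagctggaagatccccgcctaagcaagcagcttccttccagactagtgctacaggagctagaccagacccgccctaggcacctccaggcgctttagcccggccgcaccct
Txnrd1: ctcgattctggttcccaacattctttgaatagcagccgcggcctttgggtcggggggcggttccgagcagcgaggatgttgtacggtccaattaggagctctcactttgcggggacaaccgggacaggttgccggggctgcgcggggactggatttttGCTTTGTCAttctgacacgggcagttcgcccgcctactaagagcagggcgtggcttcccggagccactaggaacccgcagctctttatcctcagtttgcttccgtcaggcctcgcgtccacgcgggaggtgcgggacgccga

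A promoter was found for 15 of the 18 genes, in 23 windows. The core stood in 3 of these windows, those of Sod1, Txnrd1 and Gclm, and in 12.4% of all 32851 promoter windows of this length. Of the 3 Txnrd1 windows, only the one shown held the core. No match lay in either annotated window of Glrx or in that of Gpx1. The letters alone do not make a site, and the arrays did not measure binding.

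All 19 probes were well above background on every array. 2 arrays stood apart, namely replicate 2 of the 12 h group and replicate 3 of the 24 h group, whose signal over background was 4.72 and 3.50 against 5.34 to 10.6 on the other 10. The median of all probes lay between -0.07 and 0.01 on every array, whereas the median of the 19 members was -1.28 and -0.58 on these 2 and between -0.14 and 0.61 on the others. On the 12 h array 17 members lay below every fed array, against 44.8% of all probes. On the 24 h array 14 members did, against 38.8% of all probes. The members are bright, with 14 of 19 in the brightest of 3 equal bins of probes. The median of that bin was -0.26 on the low-signal 12 h array and 0.05 on the low-signal 24 h array. The part of brightness was not tested. Log2 fold changes of members against fed are therefore also given without these 2 arrays wherever leaving them out turned the direction or changed a call.

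**Figure D1:**
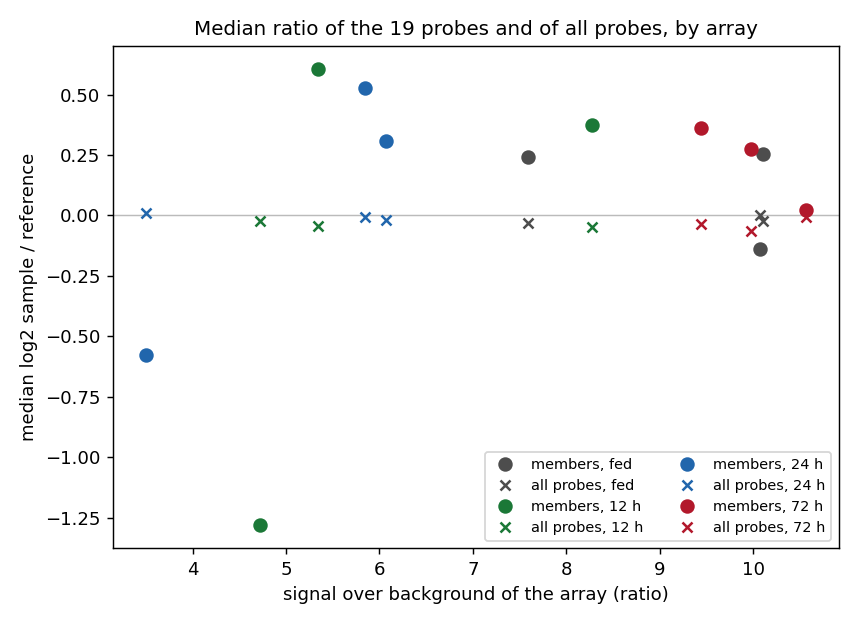
Signal over background of each of the 12 arrays (x axis, a ratio) against the median log2 ratio of sample over reference (y axis), for the 19 antioxidant probes (circles) and for all probes (crosses), coloured by group. The medians of all probes stay near 0, while those of the antioxidant probes are -1.28 and -0.58 on the arrays with the lowest signal over background, 4.72 and 3.50.

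The images were quantified on 3 days, which did not match the groups. Fed replicate 1 and both low-signal arrays share the first day, the other fed arrays and all 72 h arrays the second, and the remaining 12 h and 24 h arrays the third. The reference channel, which held the same RNA everywhere, moved with the day: on the first day it was above all 9 other arrays for 8 members, Glrx, Gsr, Txn1, Txn2, Txnrd1, Prdx4 and both Gclm probes, and for 15.8% of all probes. On the second day the reference was below all 7 other arrays for 5 members, Prdx3, Prdx4, Txn2, Gclc and the dimmer Gclm probe. The same held for 7.39% of all probes. On the third day it was above all 8 other arrays for Prdx2, and for 2.18% of all probes. Without the low-signal arrays no fed array shares a day with a 12 h or 24 h array, so that day and fasting cannot be told apart at these times.

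None of the 19 probes passed the test at any time, where a call required 1.4-fold or more together with a limma p that stayed under 0.05 after Benjamini-Hochberg adjustment across the array. The lowest adjusted p of a member was 0.956 at 12 h and 1.00 at both 24 and 72 h. Among all probes 0.00497% were called at 12 h, 0.00497% at 24 h and 0.00996% at 72 h. At an unadjusted p under 0.05, Gpx1 was the single member at each time in the lower direction, against 1.93%, 1.31% and 0.428% of all probes at 12, 24 and 72 h. In the higher direction there was no member, against 1.99%, 1.74% and 1.12% of all probes. The median log2 fold change of the members was -0.15 at 12 h, -0.11 at 24 h and 0.12 at 72 h, and that of all probes was -0.0056, -0.0022 and -0.015.

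Some members had groups that did not overlap with fed, most often at 72 h. Counted over usable spots, the 12 h arrays lay above fed for Prdx3 (6.53% of all probes), whose spot on 12 h replicate 2 was an outlier, and below fed for Gpx1 and Nqo1 (9.05%). All 24 h arrays lay above the single usable fed value for Gpx3 (6.95%) and below fed for Gpx1 (6.66%). At 72 h they lay above fed for Glrx, Gsr, Txnrd1, Hmox2 and Gpx3 (10.7%) and below fed for Gpx1 and Prdx2 (13.7%). No member had all 9 fasted arrays above all fed arrays, against 0.791% of all probes.

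Without the low-signal arrays the picture shifted upwards at 12 and 24 h. The median of the members was then 0.35, 0.23 and 0.13 at 12, 24 and 72 h. Glrx passed the test at 12 h, where 2.67% of all probes did. Glrx, Gsr and Txnrd1 passed at 24 h, where 9.41% of all probes did, and no member at 72 h, where 0.826% did. The share of members called was thus 1 of 19 at 12 h and 3 of 19 at 24 h, all in the higher direction. A fit of all arrays with the quantification day as a block went the other way: it called 10 member probes at 12 h and 4 at 24 h, all lower, where 23.2% and 12% of all probes were called. At 12 h these were Glrx, Gsr, Txn1, Txnrd1, Hmox2, Sod2, Prdx4, Gclc and both Gclm probes. At 24 h they were Hmox2, Gclc and both Gclm probes. In that fit fed liver meets the 12 h and 24 h groups on 1 day alone, that of fed replicate 1 and the low-signal arrays.

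**Figure D2:**
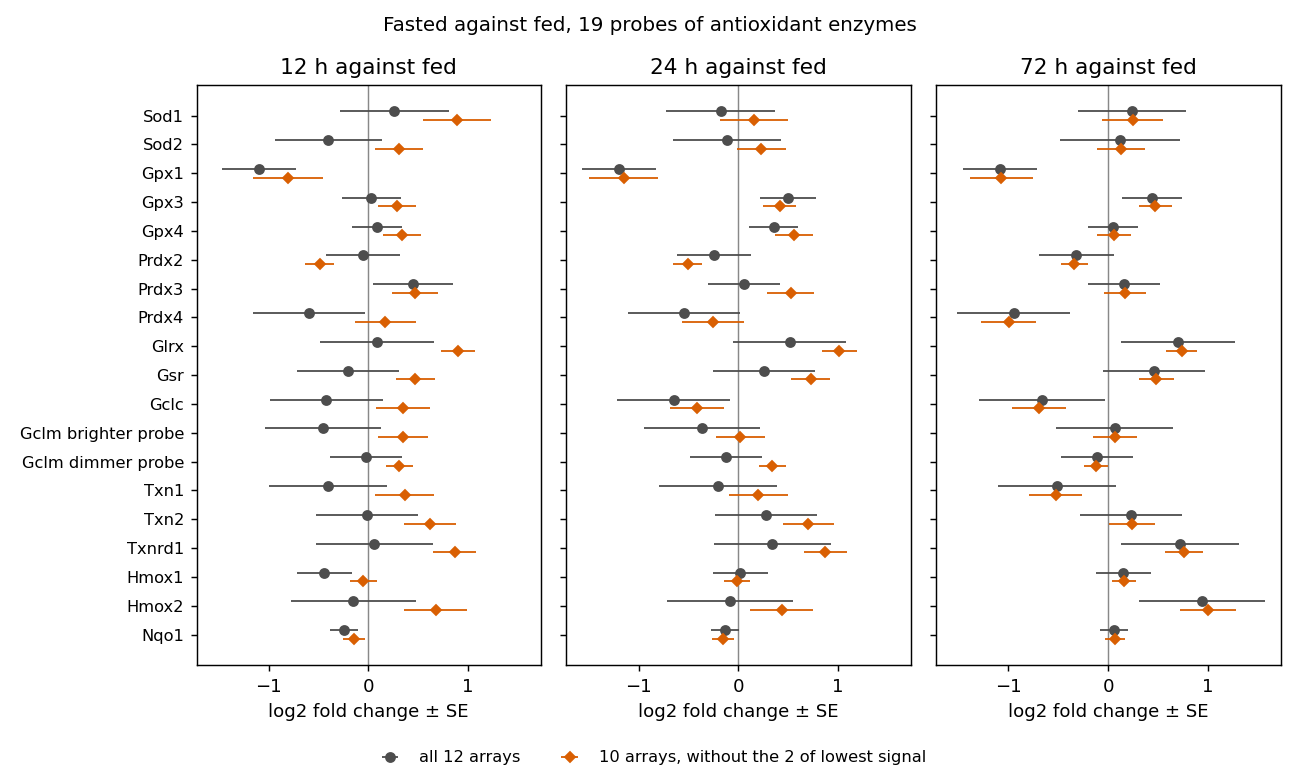
Log2 fold change of fasted against fed liver (x axis, with its SE) for the 19 probes (rows) at 12, 24 and 72 h, with all 12 arrays (grey circles) and with 10 arrays, leaving out the 2 of lowest signal (orange diamonds). Gpx1 lies near -1 in all 3 panels and in both fits, apart from -0.80 at 12 h with 10 arrays, and Glrx moves from 0.09 to 0.90 at 12 h and from 0.52 to 1.02 at 24 h.

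Sod1, the copper and zinc dismutase of the cytosol, gave 1.41, 1.26 and 0.74 on the fed arrays. It gave 2.62, 0.11 and 1.46 at 12 h, 1.47, 1.14 and 0.27 at 24 h, and 0.90, 1.84 and 1.39 at 72 h. The groups overlapped at every time, and the lowest values at 12 and 24 h came from the low-signal arrays. The fed arrays themselves lay above 0 although the reference was also fed liver, so the level against the reference is not a measure of fasting for this probe. The log2 fold change was 0.26 ± 0.54 (SE) at 12 h, -0.18 ± 0.54 at 24 h and 0.24 ± 0.54 at 72 h, with limma p values of 0.641, 0.752 and 0.666 before adjustment and 0.969, 1.00 and 1.00 after it. The 95% interval at 24 h ran from -1.38 to 1.03, that is up to 2.04-fold higher. It was not a narrow result: the intervals at 12 h (-0.94 to 1.46) and 72 h (-0.96 to 1.44) leave changes of more than 1.4-fold in either direction possible.

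The sample channel of Sod1 alone did not order the groups either. Its quantile-normalized log2 signal was 13.74, 12.68 and 12.82 in fed liver, 13.63, 11.94 and 13.52 at 12 h, 13.63, 13.88 and 12.45 at 24 h, and 12.52, 13.15 and 12.79 at 72 h. The reference channel varied nearly as much, from 11.02 to 12.74. The highest ratio of Sod1, 2.62 on 12 h replicate 1, came with the lowest reference signal, 11.02. Without the low-signal arrays Sod1 was 0.89 above fed at 12 h (adjusted p = 0.160), 0.16 at 24 h (adjusted p = 0.787) and 0.25 at 72 h (adjusted p = 0.806). Thus the sign at 24 h turned, and Sod1 was not called on these 10 arrays. With array weights, by which limma counts noisy arrays less, all 12 arrays gave 0.95, 0.22 and 0.33, and Sod1 was called at 12 h (adjusted p = 0.0309), where 9.53% of all probes were.

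Sod2, the manganese dismutase of mitochondria, ranged from -0.14 to 0.41 in fed liver, from -1.55 to 0.65 at 12 h, from -0.58 to 0.53 at 24 h and from -0.03 to 0.71 at 72 h, where 1 spot was an outlier. Its log2 fold change was -0.40, -0.11 and 0.12 at 12, 24 and 72 h with all arrays, and 0.30, 0.23 and 0.13 without the low-signal arrays, so that the direction turned at 12 and 24 h. Ccs, the copper chaperone of Sod1, is no member. Its probe gave -0.09, -0.02 and 0.00 with all arrays and 0.71, 0.35 and 0.01 without the low-signal arrays, none of them called.

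Gpx1, the selenium-dependent glutathione peroxidase of cytosol and mitochondria, was the one member whose 9 fasted arrays all lay below all 3 fed arrays. It gave 0.34, 1.02 and 0.13 in fed liver and 0.04, -1.18 and -0.67 at 12 h. At 24 h it gave -0.70, -0.62 and -0.78, and at 72 h -1.33, -0.33 and -0.12. The 24 h arrays were close together, and the gap between the lowest fed and the highest fasted array was narrow at 12 h. The log2 fold change was -1.10 ± 0.37 (SE) at 12 h, -1.19 ± 0.37 at 24 h and -1.09 ± 0.37 at 72 h, or 2.14-, 2.29- and 2.12-fold lower. The limma p was 0.0136, 0.00859 and 0.0143 before adjustment and 0.956, 1.00 and 1.00 after it, so that Gpx1 was not called at any time. Among all probes 1.22% had all fasted arrays below all fed arrays.

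The 2 channels of Gpx1 differed in their pattern. The sample signal was 15.19, 14.95 and 15.02 on the fed arrays, 14.29, 13.37 and 13.88 at 12 h, 14.00, 14.04 and 13.74 at 24 h, and 13.45, 13.73 and 13.80 at 72 h. All fasted samples were thus below all fed samples in the quantile-normalized signal, before any ratio was taken. Under loess normalization within each array, the ratios of Gpx1 overlapped with fed at 12 and 72 h. The lowest fed ratio was then -0.24, and the highest was 0.44 at 12 h, -0.32 at 24 h and 0.10 at 72 h. The reference signal, from 13.92 to 14.90, overlapped among the 4 groups. Neither channel was saturated. Without the low-signal arrays the log2 fold change was -0.80 (adjusted p = 0.213), -1.15 (adjusted p = 0.0603) and -1.07 (adjusted p = 0.146). With limma's array weights it was -1.09, -1.52 and -1.26 and passed at all 3 times (adjusted p = 0.0165, 0.00344 and 0.0153), where 9.53%, 10.5% and 4.09% of all probes did. It also passed at 72 h by the sample channel without the low-signal arrays. Within a quantification day it was -1.52 at 12 h and -1.11 at 24 h, each 1 array against 1, and -1.17 at 72 h, 3 arrays against 2. It was lower in all 25 settings at each time, with its smallest size, -0.21, at 12 h under loess normalization without the low-signal arrays.

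**Figure D3:**
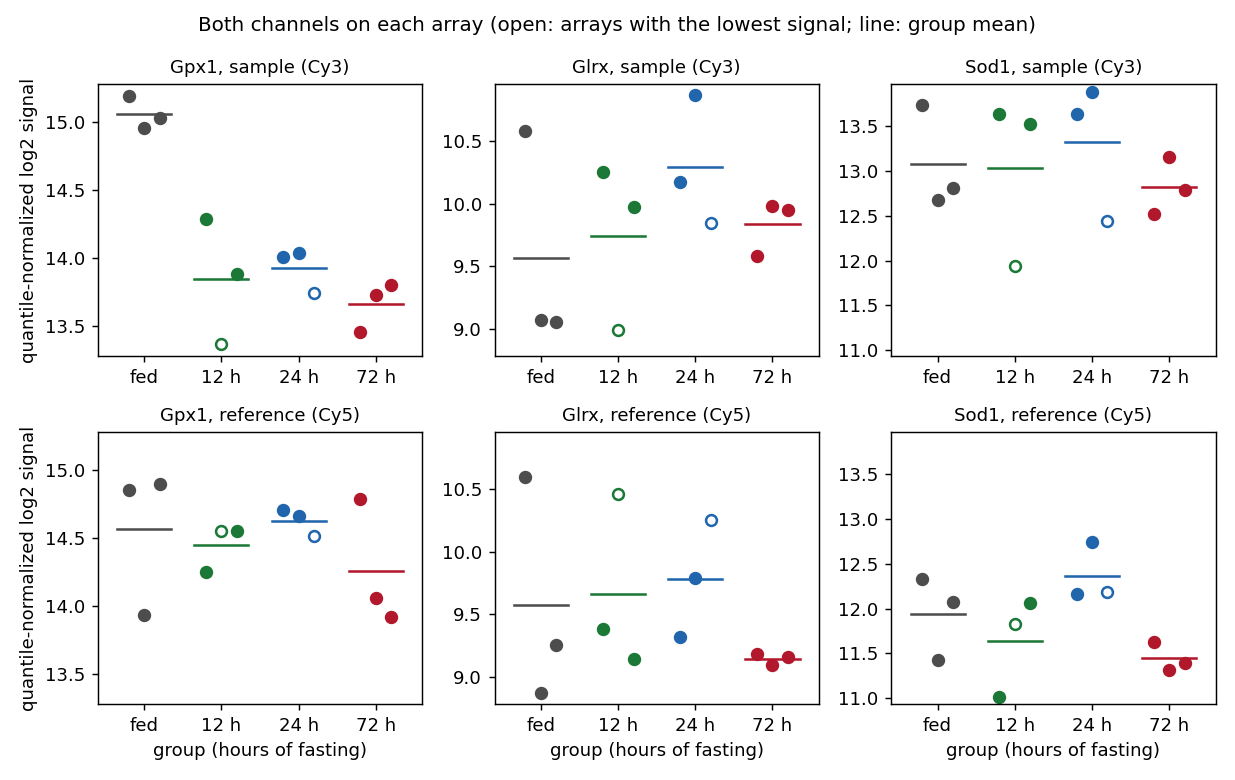
Quantile-normalized log2 signal (y axis) of the sample channel (top) and the reference channel (bottom) of Gpx1, Glrx and Sod1 on each array, by group (x axis), with open points for the 2 low-signal arrays and lines for group means. The 3 fed Gpx1 samples, 14.95 to 15.19, stand above the 9 fasted samples, 13.37 to 14.29, whereas the channels of Glrx and Sod1 overlap among groups.

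The other glutathione peroxidases did not follow Gpx1. Gpx3, the secreted form, had a usable spot on 1 fed array (-0.32) since 2 fed spots were marked as outliers. It gave -0.52 and -0.05 on 2 arrays at 12 h, 0.04, 0.10 and 0.39 at 24 h, and 0.15 and 0.10 on 2 arrays at 72 h. The 24 h and 72 h arrays lay above the single fed value, and the log2 fold changes of 0.03, 0.50 and 0.44 rest on it. With the outlier spots kept they were -0.25, 0.21 and 0.13. Gpx4, which reduces lipid peroxides within membranes, ranged from 0.41 to 0.52 in fed liver and from 0.49 to 1.10 at 24 h. Its log2 fold change was 0.09, 0.36 and 0.05 at the 3 times, and 0.56 at 24 h without the low-signal arrays (adjusted p = 0.0810). With array weights Gpx4 was called at 24 h in the higher direction.

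The peroxiredoxins went in different directions. Prdx2, a cytosolic form abundant in red cells, lay above both usable fed values on the low-signal arrays, at 1.09 on the 12 h array and 0.56 on the 24 h array. Of the other members, 17 lay below every fed array on the 12 h array and 14 on the 24 h array. Gpx3 also lay above its single fed value on the 24 h array. The other 12 h and 24 h arrays of Prdx2, from -0.24 to -0.08, and its 72 h arrays, from -0.03 to 0.03, lay below both usable fed values, 0.14 and 0.50. The 7 fasted arrays of normal signal were below fed for Prdx2 and Gpx1 among the members, and for 7.57% of all probes. On the 10 other arrays its log2 fold change was -0.49, -0.51 and -0.34, with adjusted p of 0.0965, 0.0540 and 0.307. Prdx3, the mitochondrial form, gave 0.78 and 0.77 on its 2 usable arrays at 12 h, above the fed range of 0.03 to 0.55, with overlap at 24 and 72 h. Its outlier spot on the low-signal 12 h array had a log2 signal of 8.07 in the sample and 9.32 in the reference, a ratio that would lie below fed. Prdx4, the form of the endoplasmic reticulum, had its lowest mean at 72 h, with arrays at -1.42, -0.78 and -0.20 against fed values from -0.22 to 0.38. The log2 fold change of Prdx4 at 72 h was -0.95 ± 0.56 (SE). At 12 h it was -0.59 with all arrays and 0.17 without the low-signal arrays. At 72 h the limma p was 0.121 and the adjusted p 1.00, while with array weights it was -0.96 and called (adjusted p = 0.0212). Prdx6, found under the older name Aop2 and outside the rule, gave -0.22, -0.12 and -0.41 with all arrays and 0.49, 0.35 and -0.41 without the low-signal arrays.

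Glrx, the cytosolic glutaredoxin, gave -0.02, 0.20 and -0.20 in fed liver. It gave 0.87, -1.46 and 0.83 at 12 h, 0.86, 1.08 and -0.40 at 24 h, and 0.40, 0.89 and 0.79 at 72 h. The 7 fasted arrays of normal signal all lay above all fed arrays, and both low-signal arrays below them. Of all probes 6.15% had these 7 arrays above fed, and among the members Glrx, Gsr and Txnrd1 did. Gpx3 did too, but on 5 usable arrays against 1 fed value. With all arrays the log2 fold change was 0.09 ± 0.57 (SE) at 12 h, 0.52 ± 0.57 at 24 h and 0.70 ± 0.57 at 72 h, with limma p of 0.883, 0.384 and 0.245 before adjustment and 0.987, 1.00 and 1.00 after it. Without the 2 arrays it was 0.90 ± 0.17 at 12 h, 1.02 ± 0.17 at 24 h and 0.74 ± 0.15 at 72 h, or 1.87-, 2.02- and 1.67-fold higher. The adjusted p was then 0.0295, 0.0113 and 0.0560, so that Glrx was called at 12 and 24 h and narrowly missed at 72 h.

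The 2 low-signal arrays thus decided the call of Glrx, and the reference channel moved with them. The reference signal of Glrx was 10.60, 10.46 and 10.25 on the 3 arrays of the first quantification day and from 8.87 to 9.79 on the other 9. The sample signal was 10.58, 9.07 and 9.06 in fed liver, 10.25, 8.99 and 9.98 at 12 h, 10.18, 10.86 and 9.85 at 24 h, and 9.58, 9.98 and 9.95 at 72 h. Fed replicate 1 was high in both channels and therefore unremarkable as a ratio. With the sample channel alone and without the low-signal arrays, Glrx was not called at any time. Within a day, the fasted minus fed difference was -1.44 for the 12 h array and -0.38 for the 24 h array, each against fed replicate 1, and 0.69 for the 72 h arrays against fed replicates 2 and 3. With the day as a block the log2 fold change was -1.13 at 12 h (limma adjusted p = 0.0414, a call in the lower direction) and -0.70 at 24 h. With array weights it was 0.72, 0.74 and 0.65, called at all 3 times in the higher direction (adjusted p = 0.00862, 0.00753 and 0.0230). The direction at 12 and 24 h thus hung on how the arrays of the first day were treated. At 72 h, the one time with several arrays of both groups from 1 day, the groups did not overlap.

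Gsr, which restores glutathione, followed Glrx. It ranged from -0.20 to 0.17 in fed liver, and its 7 fasted arrays of normal signal, from 0.18 to 0.96, were all above fed, with -1.48 and -0.60 on the low-signal arrays. Its log2 fold change was -0.20, 0.26 and 0.46 with all arrays and 0.47, 0.73 and 0.48 without those 2 (adjusted p = 0.195, 0.0438 and 0.251). With the day as a block it was -1.44 at 12 h, called in the lower direction (adjusted p = 0.0159), and -0.99 at 24 h. The ligase subunits did not share this course. Gclc, the catalytic subunit, gave -0.42, -0.65 and -0.66 with all arrays and 0.35, -0.42 and -0.69 without the low-signal arrays. The probes of Gclm, the modifier subunit, gave -0.45, -0.36 and 0.07 (brighter) and -0.03, -0.12 and -0.11 (dimmer) with all arrays. On the 10 other arrays they gave 0.35, 0.022 and 0.066 (brighter) and 0.31, 0.34 and -0.12 (dimmer), and neither was called with or without these arrays.

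Of the thioredoxin system, the reductase Txnrd1 was nearest to Glrx. It gave 0.01, 0.25 and -0.49 in fed liver, 0.88, -1.54 and 0.62 at 12 h, 0.65, 0.88 and -0.73 at 24 h, and 0.41, 0.80 and 0.73 at 72 h. Again the 7 fasted arrays of normal signal lay above fed and the low-signal arrays below. The log2 fold change was 0.06 ± 0.59 (SE), 0.34 ± 0.59 and 0.72 ± 0.59 with all arrays. Without the low-signal arrays it was 0.87, 0.87 and 0.76, and Txnrd1 was called at 24 h (adjusted p = 0.0320) but not at 12 h (0.0580) or 72 h (0.102). With the day as a block it was -1.29 at 12 h, called in the lower direction (adjusted p = 0.0339), and -1.01 at 24 h. With array weights Txnrd1 was called at 12 h in the higher direction. Txn1, the cytosolic thioredoxin that this enzyme reduces, gave -0.41, -0.20 and -0.51 with all arrays and 0.37, 0.20 and -0.53 without them. Txn2, the mitochondrial thioredoxin, gave -0.01, 0.28 and 0.23 with all arrays and 0.62, 0.70 and 0.24 without them. Neither thioredoxin was called with all arrays or without the low-signal arrays. With the day as a block Txn1 was -1.79 at 12 h, called in the lower direction.

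Hmox2, the constitutive haem oxygenase, which opens the haem ring, had its highest mean ratio at 72 h. It gave 0.90, 0.40 and 0.10 in fed liver, 1.30, -1.25 and 0.91 at 12 h, 0.92, 0.85 and -0.62 at 24 h, and 1.01, 2.06 and 1.16 at 72 h. All 72 h arrays lay above all fed arrays, as they did for 10.7% of all probes. The log2 fold change at 72 h was 0.94 ± 0.63 (SE). Its limma p was 0.164 and its adjusted p 1.00, while with array weights it was 1.18 and called (adjusted p = 0.0118). The difference was 1.16 when set against the fed arrays of the same day. At 12 and 24 h it was -0.15 and -0.084 with all arrays, and 0.68 and 0.44 without the low-signal arrays. With the day as a block it was -1.86 and -1.80, called in the lower direction (adjusted p = 0.0202 and 0.0337). With array weights Hmox2 was called at 12 h in the higher direction. Hmox1, the inducible haem oxygenase, was -0.44, 0.02 and 0.15 away from fed, and -0.05, -0.01 and 0.16 without the low-signal arrays. Nqo1, a quinone reductase and a common marker of Nfe2l2 activity, stayed between -0.49 and 0.10 on all 12 arrays, with log2 fold changes of -0.24 ± 0.14 (SE), -0.13 ± 0.14 and 0.063 ± 0.14. Its 12 h arrays all lay below fed, as for 9.05% of all probes.

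**Figure D4:**
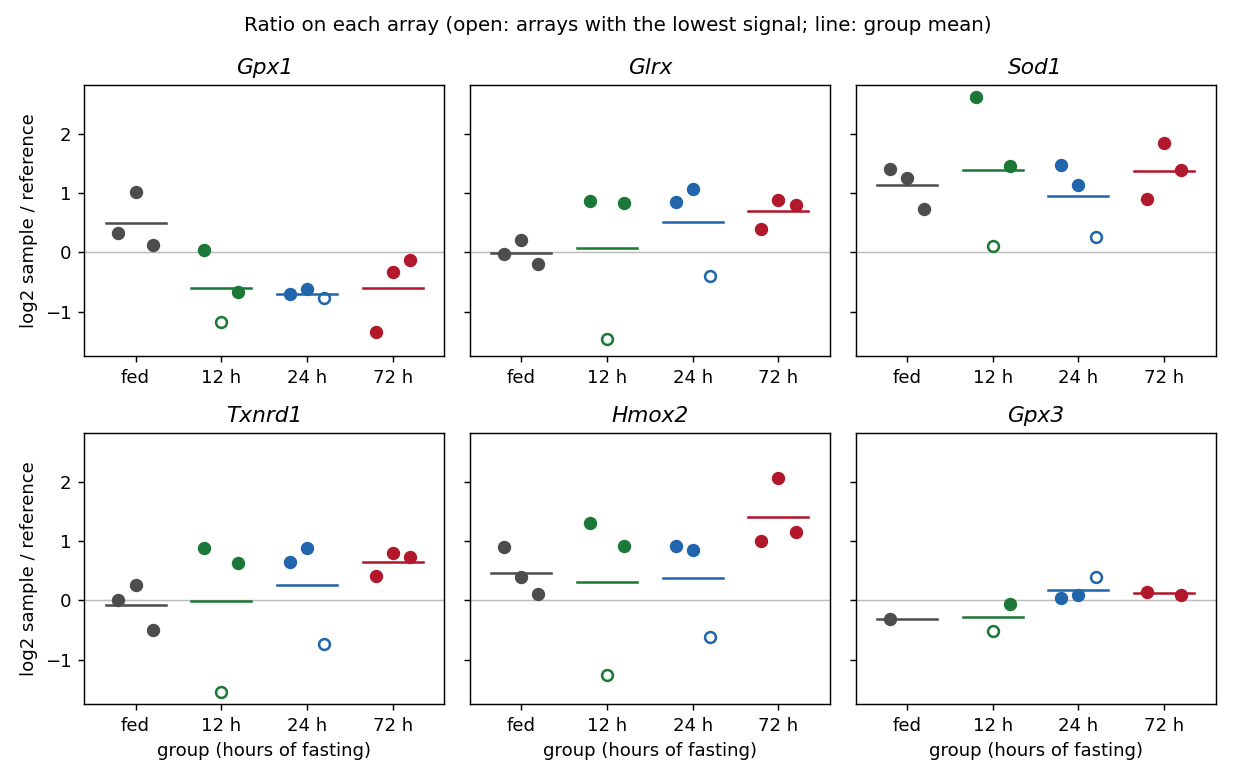
Log2 ratio of sample over reference (y axis) on each array for Gpx1, Glrx, Sod1, Txnrd1, Hmox2 and Gpx3, by group (x axis), with open points for the 2 low-signal arrays and lines for group means. For Gpx1 every fasted point lies below every fed point, and for Glrx and Txnrd1 the filled fasted points lie above fed and the open ones below.

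Some members also shared their course over the arrays, described here by Pearson's r over arrays that have the same reference. Over 12 arrays Glrx went with Txnrd1 (r = 0.99), Gsr (0.98), Txn2 (0.94) and Sod2 (0.92), and against Prdx2 (-0.94). Over the 10 arrays of normal signal r was 0.96 for Txnrd1, 0.92 for Gsr, 0.82 for Txn2, 0.67 for Sod2 and -0.77 for Prdx2. Others did not follow Glrx over these 10 arrays, with r of 0.29 for Txn1, 0.02 for Gclc, -0.04 for Prdx4 and Hmox1, and -0.50 for Nqo1. Sod1 and Glrx had r = 0.77 over 12 and 0.51 over 10 arrays, and Gpx1 and Glrx 0.15 and -0.48. Across the named probes without missing values, the genes most like Glrx over 12 arrays included Tcp1, Rab3ip, Pink1 and Txnrd1 (r = 0.99 each), and 546 of 4898 probes had r over 0.9. Those most like Sod1 were Rpl38, Mad2l2, Tars, Rpl35 and Clu (r from 0.95 to 0.97), with 39 probes over 0.9. Part of these likenesses stands on the low-signal arrays, since only 175 probes for Glrx and 16 for Sod1 had r over 0.9 over the other 10.

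Times of fasting were also set against each other, and no member passed between 12 and 24 h or between 24 and 72 h, where 0% of all probes were called by limma. At an unadjusted p under 0.05, 190 probes differed in the first of these comparisons and 687 in the second, no member among them. Gpx1 differed by -0.10 ± 0.37 (SE) from 12 to 24 h and by 0.11 ± 0.37 from 24 to 72 h. Glrx differed by 0.43 ± 0.57 and 0.18 ± 0.57, and Sod1 by -0.44 ± 0.54 and 0.42 ± 0.54. Without the low-signal arrays Gpx1 differed by -0.35 and 0.08, Glrx by 0.11 and -0.28, and Sod1 by -0.73 and 0.09. The direction of Glrx from 24 to 72 h thus turned. No member was called on these arrays either, where 0% and 1.32% of all probes were.

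Around the members, 7 further lists of redox genes were counted. The list of iron, haem and metal binding, with 9 tested probes, held the calls with all 12 arrays. These were Mt1 at all 3 times and Mt2 at 72 h, both metallothioneins that bind zinc and scavenge radicals. Like Sod1, Mt1 is a gene that the study names from these arrays, so its call is not independent evidence. Mt1 gave -0.24, -0.09 and -0.25 in fed liver against 1.90 to 3.42 on the 8 fasted arrays with a usable spot, and was 8.09-, 5.53- and 11.4-fold higher (adjusted p = 0.00469, 0.0107 and 0.000389). Mt2 was 12.2-, 8.98- and 13.9-fold higher, with an adjusted p of 0.0504, 0.170 and 0.0309. On the 10 other arrays Mt2 was called at all 3 times, at 14.3-, 11.4- and 12.9-fold higher (adjusted p = 0.00369, 0.00207 and 0.000661). For both, every usable fasted array lay above every fed array, the low-signal arrays included. Blvra, which reduces the biliverdin made by haem oxygenase, was 1.70- and 1.82-fold lower at 12 and 24 h, at an unadjusted p of 0.0280 and 0.0153. On the 10 other arrays the list held 3 calls higher at 12 h, 3 higher and 1 lower at 24 h, and 2 higher at 72 h. Of all probes 1.75%, 5.55% and 0.686% were called higher on these arrays, and 3.86% lower at 24 h.

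No other list held a call with all 12 arrays. Of the regulators, with 9 tested probes, Egr1 was 7.03-fold higher at 12 h and 3.57-fold higher at 24 h (unadjusted p = 0.00256 and 0.0276), and Foxo1 1.88-fold higher at 72 h (0.0441). The median log2 fold change of the regulators was 0.03, 0.45 and 0.26. Nfe2l2 itself gave -0.03, 0.19 and 0.07. Its highest ratios came from the low-signal arrays, 0.18 at 12 h and 0.45 at 24 h. The other arrays gave -0.63 and -0.11 at 12 h and 0.04 and -0.40 at 24 h. Its fed arrays gave -0.36, -0.10 and -0.02. On the 10 arrays of normal signal 1 regulator was called higher at 12 h (Egr1), 6 at 24 h and 1 at 72 h (Foxo1), against 1.75%, 5.55% and 0.686% of all probes. The 6 at 24 h were Egr1, Mapk14, Mafg, Foxo3, Foxo1 and Hif1a, with log2 fold changes from 0.69 for Hif1a to 2.79 for Egr1. Egr1 and Mapk14 are, like Sod1, genes that the study names from these arrays. Of NADPH supply, with 11 tested probes and medians of 0.11, -0.15 and -0.10, the transketolase Tkt was higher by 0.46 at 12 h and by 0.64 at 24 h on 1 of its probes (unadjusted p = 0.0416 and 0.00856), and the isocitrate dehydrogenase Idh1 had a log2 fold change of -0.70 at 72 h on 1 of its probes (0.0405). Gss, which completes glutathione, was 1.46-fold lower at 12 h (unadjusted p = 0.0243), in a list of 8 tested probes with medians of 0.01, -0.05 and -0.01. The 12 probes of peroxide removal and protein repair (medians 0.08, 0.03 and -0.0087), the 9 of enzymes that release superoxide or hydrogen peroxide (-0.27, -0.20 and -0.12) and the 5 of selenoprotein synthesis and transport (-0.35, -0.03 and 0.23) had no probe at an unadjusted p under 0.05. On the 10 arrays of normal signal, NADPH supply had 2 calls higher at 24 h and 1 lower at 72 h. The list with Gss had 1 higher at 24 h. Enzymes that release superoxide or hydrogen peroxide had 1 higher at 12 h, and 1 higher and 1 lower at 24 h. Peroxide removal and the selenoprotein list had none. Of all probes 0.924%, 3.86% and 0.139% were called lower at the 3 times. No probe carried the name of Keap1.

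Catalase (Cat), the peroxisomal enzyme that splits hydrogen peroxide, was on the array under its older name Cas1. It is another gene that the study names from these arrays. It gave 0.08, 0.16 and -0.05 in fed liver, 1.05, -0.70 and 0.88 at 12 h, 0.51, 1.11 and -0.67 at 24 h, and -0.71, -0.26 and 0.38 at 72 h. At 12 and 24 h the low-signal arrays lay below fed and the others above. The log2 fold change was 0.35 ± 0.52 (SE), 0.25 ± 0.52 and -0.26 ± 0.52 with all arrays. Without the low-signal arrays it was 0.89, 0.74 and -0.26, and not called (limma adjusted p = 0.0939, 0.0985 and 0.717).

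The arrays measured liver by its markers. The log2 of the summed signal of 4 hepatocyte probes (Apoa1, Trf and Ttr) was 17.30 to 17.39 in fed liver, 17.02 to 17.20 at 12 h, 17.05 to 17.11 at 24 h and 16.46 to 16.99 at 72 h. These sums were lower on all fasted arrays than on all fed arrays, but the probes did not go one way: 2, 1 and 2 of the 4 had a log2 fold change above 0 at 12, 24 and 72 h. Ttr gave -0.56, -0.77 and -1.35, and Apoa1 0.37, -0.17 and 0.15. The 4 macrophage and leukocyte probes gave 12.19 to 12.77 in fed liver, 11.39 to 12.20 at 12 h, 11.99 to 12.16 at 24 h and 12.43 to 12.63 at 72 h. The 2 erythroid probes, Hba-a1 and Slc4a1, gave 12.83 to 14.43 in fed liver, 13.21 to 13.31 at 12 h, 12.74 to 13.23 at 24 h and 13.85 to 14.16 at 72 h. The 2 endothelial and stellate probes and the 2 biliary probes stayed between 7.99 and 10.12 on all arrays. Their part in the results was not tested.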

How the data were processed

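The authors deposited scanner output of Agilent's Feature Extraction software, with a median intensity for every spot and for the background around it in both channels, and the software's log10 ratio. Their value table repeats that log10 ratio with the opposite sign, to within 4.98e-08. The study itself used quantile normalization and a Split-Factor ANOVA, which was not used here.

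Of 21446 spots, 1075 control and 91 retired spots were left out. Signals were corrected with normexp (offset 50) over all spots, quantile-normalized over 24 channels and turned into a log2 ratio with the reference as denominator. Outlier spots, by the software's marks, became missing values, which touched 24.7% and 14.1% of probes on fed replicates 2 and 3 and at most 6.29% elsewhere. Probes whose sample signal failed the software's background test in part of every group were not tested. Differences were fitted with limma 3.58.1 in R 4.3.3 (lmFit and eBayes, 4 groups), with Benjamini-Hochberg adjustment over all probes. A call needed an adjusted p under 0.05 and a 1.4-fold change. The number of arrays, 3 per group, limits the precision. The p-values measure the spread between arrays, each with 1 pool of 2 livers. Differences between pools and between arrays or days cannot be told apart in that spread. The code was tested on simulated data.

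The file names were brought to current symbols by RefSeq symbols (4326 probes) or synonyms (4126), with 744 names unmatched. Cat, whose older name fits several genes, and Ccs were named by the probe's description. Of 30 genes of the name pattern in the annotation, 18 had a member probe, 2 a probe under an older name only and 10 none. Array values are given for Sod1, Glrx and each member with an unadjusted p under 0.05, a call, or a 1.4-fold change without overlap against fed. Other redox genes are named where they were called or had an unadjusted p under 0.05, with Cat, Ccs, Egr1, Mt1, Mt2, Nfe2l2 and Keap1 in any case. The members, lists and alternatives were chosen with earlier results of these data known. Alternatives were loess, the software's ratio, the sample channel alone, no background correction, outliers kept, no filter, array weights, blocks of quantification day or replicate number, and arrays left out. The combinations of leaving out both low-signal arrays with loess or with the sample channel were chosen after seeing the data.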

Additional observations from a re-analysis of the deposited data

Results flagged for a closer look

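Nqo1 lay on opposite sides of the fed mean at different times on every array, with log2 fold changes of -0.24 at 12 h and -0.13 at 24 h and of 0.063 at 72 h. The step from 24 to 72 h, 0.19 ± 0.14 (SE), had a limma p of 0.199 before adjustment and 1.00 after it, and the difference between 12 and 72 h was not tested. Hmox1 likewise lay below the fed mean on all 12 h arrays (-0.44) and above it on all 72 h arrays (0.15), and this difference was not tested. The 12 h mean of Hmox1 rests on the low-signal array, at -1.31, and was -0.05 without both low-signal arrays.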

How the results depend on the processing

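Gpx1 was lower at all 3 times under every alternative, and Glrx and Txnrd1 were higher at 72 h under every alternative. A constant direction was common among the members at 72 h. Hmox1, Hmox2 and Nqo1 were also higher in all 25 settings, and Gpx3 in the 24 that gave it a value. Prdx2, Prdx4, Txn1, Gclc and the dimmer Gclm probe were lower in all 25. Nqo1 was lower in all 25 at 12 and 24 h. Where a direction or call moved, the cause was not tested.

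With the quantification day as a block, Glrx was -1.13 at 12 h and -0.70 at 24 h, Txnrd1 -1.29 and -1.01, Sod1 -0.999 and -1.44, and Hmox2 -1.86 and -1.80. This block called 10 member probes at 12 h, 4 at 24 h and 0 at 72 h, and of all probes 4675, 2414 and 4, with 2126 between 24 and 72 h. Within 1 day the 12 h and 24 h differences rest on 1 array against 1 and have no test.

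Without both low-signal arrays Hmox2 was 0.68 at 12 h and 0.44 at 24 h, and Sod1 0.16 at 24 h. The calls were then 1 and 3 members at 12 and 24 h, and 538, 1895 and 166 probes at the 3 times, with 266 between 24 and 72 h. With loess in addition, Hmox2 was 0.78 and 0.44 and Sod1 0.44 at 24 h, with 1 and 1 members, 824, 1201 and 220 probes, and 155 between 24 and 72 h. With the sample channel alone in addition, Hmox2 was 0.64 and 1.03, and Sod1 0.66 at 24 h and -0.25 at 72 h, with 1 member (Gpx1) at 72 h and 8, 29 and 24 probes.

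With array weights Hmox2 was 0.74 and 0.49 at 12 and 24 h and Sod1 0.22 at 24 h, with 5, 3 and 4 members and 1916, 2113 and 822 probes called against fed. The members called at 12 h were Glrx, Hmox2, Sod1 and Txnrd1 (higher) and Gpx1 (lower). At 24 h they were Glrx and Gpx4 (higher) and Gpx1 (lower). At 72 h they were Glrx and Hmox2 (higher) and Gpx1 and Prdx4 (lower). Between 12 and 24 h 181 probes were called and between 24 and 72 h 856.

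The remaining settings kept all 12 arrays and called 0 members. Hmox2 was 0.13 and 0.021 at 12 and 24 h with loess, which called 0 probes at 72 h. With the sample channel alone Hmox2 was 0.019 and 0.44, Sod1 was -0.046, 0.24 and -0.26 at 12, 24 and 72 h, and 0 probes were called at 12 and 24 h. By the scanner software's ratio Gpx3 was -0.029 and Hmox2 0.048 at 12 h, with 0 probes called at any time. With outlier spots kept Gpx3 was -0.25 at 12 h, with 3 and 2 probes called at 12 and 24 h, and without background correction 3 probes were called at 12 h.

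The replicate numbers do not pair the arrays: over 18 pairs of the same number, r of their deviations from the group means ran from -0.59 to 0.59, and 5 were over 0.1. With the number as a replicate block 2 probes were called at each of 12, 24 and 72 h, and 0 members.

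With 1 array left out at a time, Glrx at 12 h ran from -0.31 to 0.88, Txnrd1 at 12 h from -0.38 to 0.85, Sod1 from -0.35 to 0.90 at 12 h and from -0.44 to 0.16 at 24 h, Hmox2 from -0.64 to 0.66 at 12 h and from -0.35 to 0.43 at 24 h, and Gpx3 at 12 h from -0.20 to 0.28. In each of these the highest value came from leaving out 12 h replicate 2 (at 12 h) or 24 h replicate 3 (at 24 h). Called probes ran from 0 to 3 at 12 h, 0 to 7 at 24 h and 1 to 4 at 72 h, and no member was called.

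With 3 arrays per group, SE of 0.54 to 0.57 for Sod1 and Glrx leave differences of 1.4-fold undetected. The arrays with a signal over background of 4.72 and 3.50 also share a quantification day, and the part of each was not tested.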
